A study of Mus musculus with 34 samples.

Results

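Foxp3 binding in unfractionated regulatory T (Treg) cells was compared with its binding in 2 sorted Treg subsets, at all 6396 peaks of the deposited Foxp3 table. Both bulk wild-type libraries were set against the mean of the effector Treg group (2 libraries) and the central Treg group (2 libraries), so 6 of the 8 Foxp3 libraries of a series of 34 samples carry the comparison. The mice were C57BL6/J and carried Foxp3-IRES-hCD2, a reporter that puts human CD2 on cells expressing Foxp3, and the tissue was lymph nodes and spleen. Per the labels, bulk Treg cells were gated as CD4+hCD2+. The central gate (cTreg) further asked for high CCR7, high CD62L and low CD44, and the effector gate (eTreg) for low CCR7 and low CD62L. A CD4+hCD2+ cell with another combination of these markers is in the bulk gate and in neither subset gate. The remaining 2 Foxp3 libraries are Treg cells of Foxp3-IRES-hCD2.Batf-/- mice sorted through the bulk gate. They entered the fit and are shown beside the others. The labels give neither age nor sex, and do not say whether the replicates came from separate animals, so the p-values measure only the spread between libraries, which may be technical.

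Foxp3 is the forkhead transcription factor that specifies Treg cells and binds enhancers and promoters together with partners such as Runx, ETS and AP-1 family proteins. Central Treg cells recirculate through lymphoid tissue with a naive-like profile, whereas effector Treg cells have met antigen and carry BATF- and IRF4-dependent genes for suppression and tissue entry. A bulk population that held only these 2 kinds of cells would, on a linear scale and with equal antibody recovery, give values between theirs. The sites described below are those where it did not.

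Bulk Treg cells lay outside both subsets at 1019 peaks (15.9%). A peak was called outside both where the bulk group differed from effector and from central Treg cells in the same direction, with the larger of both p-values from limma adjusted over all peaks to under 0.05. Bulk values were higher than in both subsets at 698 peaks (10.9% of all peaks) and lower at 321 peaks (5.02%). At each of these peaks both bulk libraries lay outside the range of all 4 subset libraries. Without any test, both bulk libraries lay above all 4 subset libraries at 1641 peaks (25.7%) and below them at 1590 peaks (24.9%). The higher peaks were assigned to 482 genes and the lower ones to 242 genes, each peak going to the closest protein-coding gene if it lay no more than 100000 bp off, out of 2876 genes with a peak.

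The genes with the higher sites include parts of T cell receptor signalling, AP-1 factors, STAT5 and its target Pim1, and transcription factors of both naive and effector Treg cells. Lower sites lay in Aim2, at the promoter of Kdm5c and in noncoding loci of chromosome X. The median normalised read number at the 698 higher peaks was 76.6 in bulk, 27.3 in effector and 24.4 in central Treg cells. At the 321 lower peaks it was 10.6 in bulk, 32.2 in effector and 32.6 in central cells. The smaller of both log2 differences had a median of 1.26 at the higher and -1.33 at the lower peaks.

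**Figure D1:**
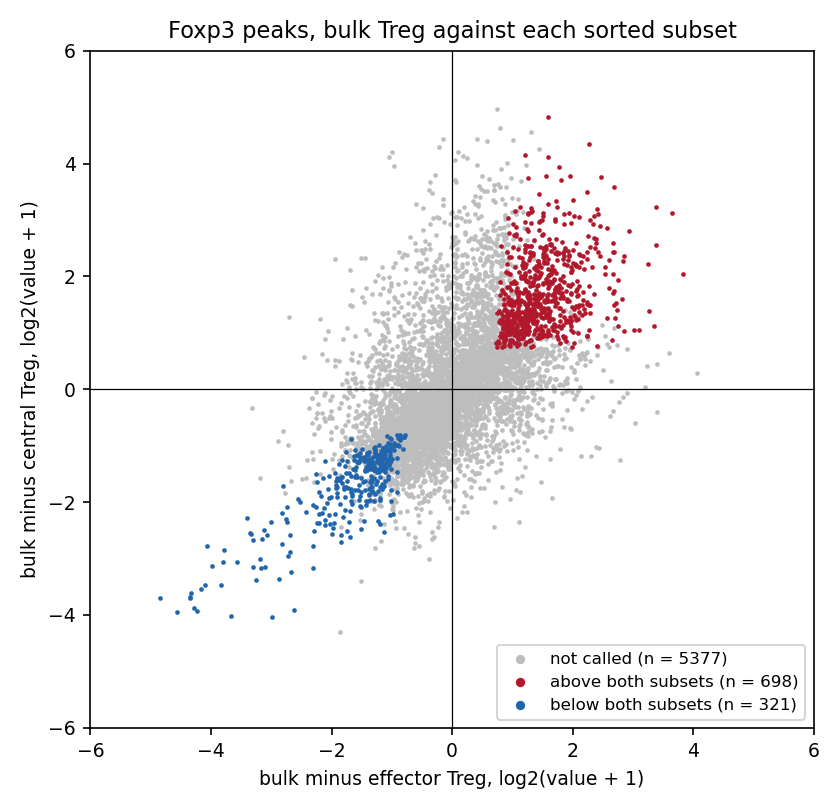
Each point is 1 of 6396 Foxp3 peaks, with the log2(value + 1) difference of bulk minus effector Treg cells on the x axis and of bulk minus central Treg cells on the y axis. The 698 red and 321 blue peaks, called outside both subsets, fill the upper right and lower left corners, where both differences have the same sign.

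Promoters on sites outside both subsets are shown here for 3 genes, because they place the binding difference at a gene start. The 250 bases before the annotated start are given in the direction of transcription, from RefSeq on GRCm38.p6, the assembly of mm10. Kdm5c has the lower site that the naming rule selects, and Pak1 and Runx1 were chosen after their values were seen. The strings searched on both strands were TGTTTAC (forkhead), TGANTCA (AP-1), CCGGAAG (ETS) and TGTGGTT (Runx), and TGACGTCA, the cyclic AMP response element bound by ATF and CREB proteins, which was added after the Pak1 sequence was read. Capitals mark matches.
Kdm5c (plus strand, chrX:152232977-152233226): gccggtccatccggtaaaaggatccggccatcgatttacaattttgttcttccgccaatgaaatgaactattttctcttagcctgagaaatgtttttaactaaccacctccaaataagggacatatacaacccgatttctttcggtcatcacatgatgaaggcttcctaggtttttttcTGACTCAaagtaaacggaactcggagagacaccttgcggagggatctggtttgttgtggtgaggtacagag
Pak1 (plus strand, chr7:97788291-97788540): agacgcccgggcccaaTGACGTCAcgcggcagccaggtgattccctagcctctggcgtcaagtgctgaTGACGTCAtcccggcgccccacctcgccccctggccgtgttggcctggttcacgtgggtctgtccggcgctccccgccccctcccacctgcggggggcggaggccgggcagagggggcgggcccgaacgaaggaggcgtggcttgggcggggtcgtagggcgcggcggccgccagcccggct
Runx1 (minus strand, chr16:92826075-92826324): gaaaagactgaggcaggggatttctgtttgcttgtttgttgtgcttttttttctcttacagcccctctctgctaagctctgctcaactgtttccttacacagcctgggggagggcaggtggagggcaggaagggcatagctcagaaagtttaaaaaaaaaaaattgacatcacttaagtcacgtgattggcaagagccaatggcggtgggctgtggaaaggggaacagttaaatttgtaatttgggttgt
The Kdm5c window holds 1 AP-1 string, and the Pak1 window holds the cyclic AMP response element string at 2 places. No searched string occurs in the Runx1 window, which says only that these letters are not in it. Over all 21238 promoter windows of this length, 6.14% held the AP-1 string and 1.93% the cyclic AMP response element. Over the 553 windows on any Foxp3 peak the shares were 4.88% and 2.17%, and over the 63 on a higher peak 6.35% and 3.17%. The forkhead string was in 2.61% of all windows, 6.51% of those on a Foxp3 peak and 3.17% (2 windows) of those on a higher peak. The 14 windows on a lower peak are too few to read a share from.

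The Pak1 promoter peak (chr7:97788068-97788468, as deposited), at a kinase that acts downstream of Rac and Cdc42, had 61.7 and 40.1 normalised reads in the bulk libraries. It had 7.60 and 6.34 in the effector and 6.66 and 8.16 in the central libraries. The promoter peak of Runx1, a partner of Foxp3, had 137.5 and 188.0 in bulk, 52.0 and 74.98 in effector and 39.96 and 68.2 in central libraries. Both bulk values were above all subset values at either promoter, with limma adjusted p = 8.8e-05 for Pak1 and 0.0014 for Runx1. The peak at the promoter of Kdm5c, an X-linked histone H3 lysine 4 demethylase, went the other way: 28.3 and 21.7 in bulk, 96.3 and 105.5 in effector and 147.8 and 132.7 in central libraries (adjusted p = 2.8e-05).

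The 8 Foxp3 libraries held between 164740 and 393310 reads in peaks, and the share of a library's normalised total in its top decile of peaks was 24.2 to 27.4% in the 4 subset libraries and 31.8 to 33.3% in the bulk and Batf knockout libraries. This difference in spread between weak and strong peaks runs through the whole comparison. When peaks were put into 10 groups by their mean over all 8 libraries, the median log2 difference of bulk against the mean of both subsets went from -0.85 in the weakest decile to 0.79 in the strongest. In the weakest decile the median value was 9.31 in bulk, 19.7 in effector and 16.9 in central cells. In the strongest it was 111.1, 66.1 and 71.4, and Batf knockout cells had 10.1 and 110.9 at these ends. Peaks above both subsets made up 0.938% of the weakest and 38.0% of the strongest decile, and peaks below both 9.69% and 2.66%. The mean that orders the peaks includes the bulk and Batf knockout libraries. A peak high in bulk is thus moved to a stronger decile, and part of this trend is built in. Bulk and Batf knockout libraries also stood apart from the subset libraries in a principal component analysis. The first component, with 46.7% of the variance, held them between 25.2 and 41.0 and the subset libraries between -47.8 and -24.4. The second, with 31.3%, separated effector (42.4 and 43.5) from central libraries (-32.5 and -32.9), with bulk at 14.5 and 12.5. By the labels each subset library has an input of its own and each bulk group shares 1 input. Whether the libraries were prepared together is not stated, so gate and preparation cannot be told apart.

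**Figure D2:**
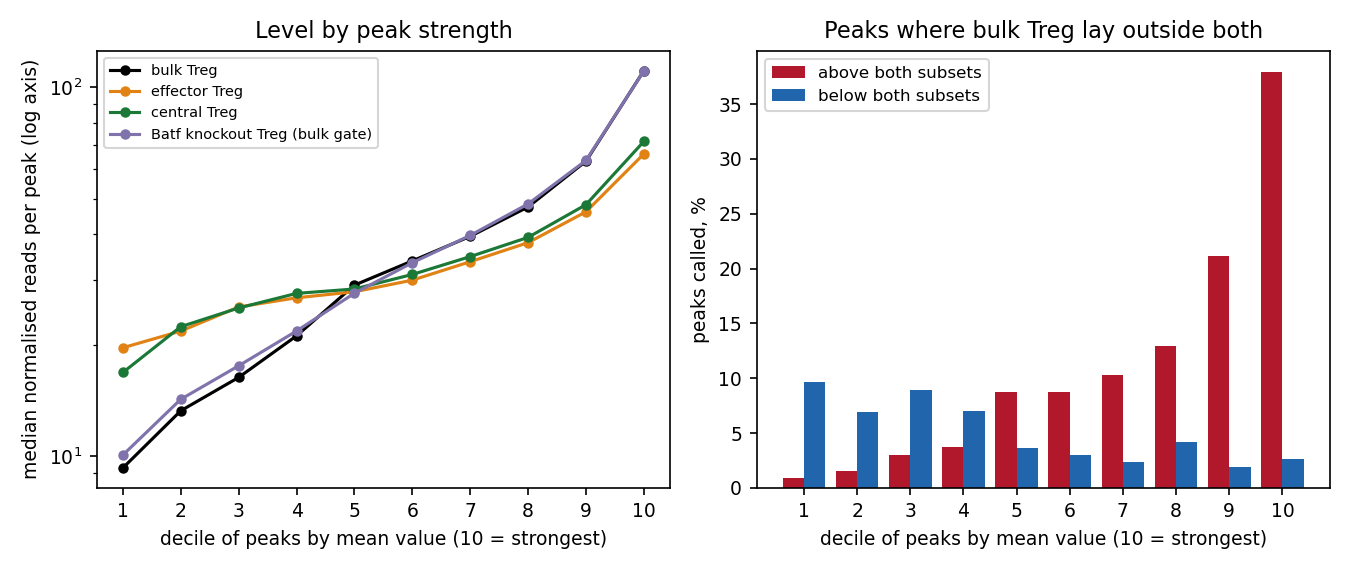
Left, median normalised reads per peak (log axis) in each decile of peaks ordered by mean value, 1 line per group of 2 libraries. Right, percent of the peaks of each decile called above (red) or below (blue) both subsets: red climbs from 0.938% to 38.0%, and blue is 9.69% in the weakest and 2.66% in the strongest decile.

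Taken one subset at a time, bulk cells were higher than effector cells at 1347 peaks (21.1%) and lower at 919 (14.4%), and higher than central cells at 1624 (25.4%) and lower at 1252 (19.6%). The contrast of bulk against the mean of both subsets called 1702 peaks higher (26.6%) and 1241 lower (19.4%). All 1019 peaks outside both were among them. The other 1924 passed against the mean and were not called outside both. The count outside both depended on single libraries. Leaving out effector library 1 left 343 higher and 84 lower calls, and leaving out bulk library 1 left 351 and 223. Without bulk library 2 there were 374 and 180. The number lower was also under 321 without effector library 2 (127), central library 1 (123) or central library 2 (172). With 1 library left in a group, that library is taken to vary as the other groups do. The balance of directions depended on the scaling: dividing by the total reads in peaks gave 456 higher and 670 lower in place of 698 and 321, and 1325 and 1974 in place of 1702 and 1241 for the mean contrast. That scaling moved the median log2 difference of all peaks from -0.03 to -0.27, quantile normalisation moved it to -0.11, and taking the midpoint on the linear scale also moved it to -0.11. Cyclic loess, which removes the trend with strength, gave 450 higher and 282 lower, of which 370 and 144 were also called without it.

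Among the sites with the largest smaller-of-both difference, the highest was in Bicdl1, a dynein cargo adaptor. Its peak (chr5:115712639-115713039) had 137.5 and 160.4 normalised reads in bulk, 10.1 and 17.3 in effector and 12.0 and 18.5 in central libraries. Both bulk values lay far above all 4 subset values, and the smaller log2 difference was 3.23 (limma adjusted p = 3.8e-07). The Batf knockout libraries had 192.1 and 164.7 there. Bicdl1 had 3 of its 4 peaks above both subsets, and Epb41, which encodes the membrane skeleton protein 4.1R, had 3 of 3. Over all peaks the share above both was 10.9%.

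Genes of T cell receptor signalling had several of the higher sites. Rasgrp1 couples the receptor to Ras, and its peak (chr2:117390187-117390587, 47310 bp from the gene) had 276.0 and 227.2 in bulk, 32.9 and 44.4 in effector and 14.7 and 26.7 in central libraries. This was a smaller log2 difference of 2.68 (adjusted p = 2.9e-06), with no overlap between bulk and subset libraries. Cd247, the zeta chain of the receptor complex, had 153.7 and 246.4 in bulk, 25.3 and 31.1 in effector and 48.0 and 52.6 in central libraries. A site in Ptprc, the CD45 phosphatase, had 180.0 and 180.4 against 25.3 to 48.2 in the 4 subset libraries, while another site in Ptprc was below both subsets, with 19.2 and 14.2 against 35.5 to 43.0. Cblb, a ubiquitin ligase that restrains the receptor, had 3 of 8 peaks above both subsets. Of the 65 peaks of the T cell receptor and costimulation list, 11 were above and 1 below both subsets, that is 16.9% and 1.54% beside 10.9% and 5.02% of all peaks. With loess these counts were 7 and 2.

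Death and tumour necrosis factor family ligands were also among the named higher sites. The Fasl peak (chr1:161751216-161751616), 29080 bp from the gene of the Fas ligand, had 79.9 and 96.9 in bulk, 8.87 and 18.5 in effector and 13.3 and 17.8 in central libraries. The peak assigned to Tnfsf8, the CD30 ligand (chr4:63906076-63906476, 44570 bp from the gene), had 47.5 and 47.6 in bulk, against 6.34 to 10.1 in the 4 subset libraries. Both bulk values exceeded every subset value at either site, as the naming rule requires. The smaller log2 differences were 2.44 for Fasl (adjusted p = 2.8e-05) and 2.43 for Tnfsf8 (2.3e-04). The other named higher peaks were assigned to Thada, Psmg1, Eea1, Zfp281 and Ubr2. The Psmg1 peak lies 78130 bp from that gene, so its assignment says only which gene is nearest.

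**Figure D3:**
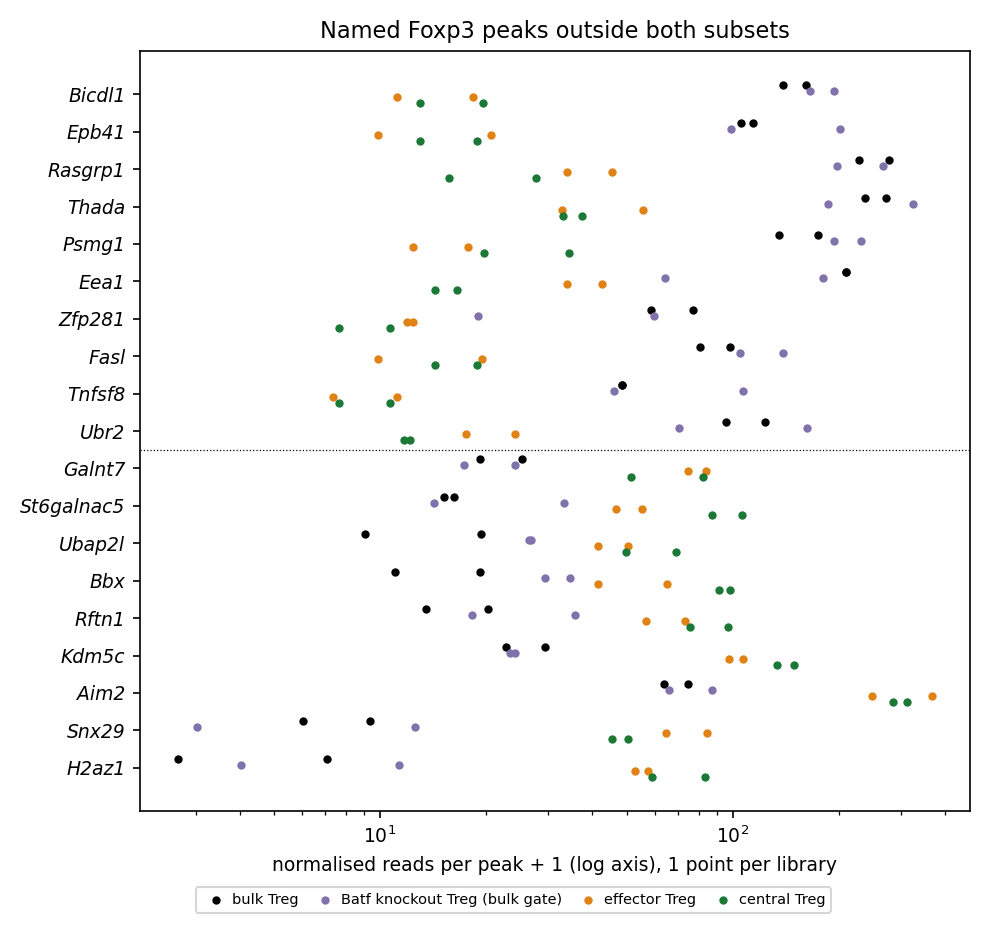
Normalised reads per peak plus 1 (log axis) in each of 8 libraries at 10 higher and 9 lower peaks that the naming rule selects, 1 point per library. Above the dotted line both bulk libraries lie right of all subset libraries, as at Bicdl1 with 137.5 and 160.4, and below it they lie left of them, as at Aim2 with 62.7 and 73.5. The naming rule required this separation.

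Several higher sites belonged to genes of the interleukin-2 response. Stat5b, the transcription factor downstream of the interleukin-2 receptor, had 3 of 5 peaks above both subsets. The one with the largest difference (chr11:100848083-100848483) had 117.3 and 93.6 in bulk, 17.7 and 19.0 in effector and 14.7 and 25.95 in central libraries, a smaller log2 difference of 2.37 (adjusted p = 1.7e-05). Pim1, a kinase gene induced through STAT5, had 155.7 and 125.3 in bulk against 23.7 to 42.7 in the subset libraries. Il2ra, the interleukin-2 receptor alpha chain, had 2 sites above both, the stronger with 167.9 and 151.2 in bulk, 79.8 and 82.5 in effector and 91.9 and 95.6 in central libraries (adjusted p = 0.031). The call of the stronger site against the mean of the subsets was lost under quantile normalisation and loess. Of the 38 peaks of the interleukin-2, STAT5 and survival list, 9 (23.7%) were above and 0 below both subsets, beside 10.9% and 5.02% of all peaks. With loess these counts were 6 and 0.

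With the deposited scaling, AP-1 and activation genes held the largest share of higher sites among the lists with over 10 peaks. Of 13 peaks near AP-1, BATF and IRF genes, 5 (38.5%) were above both, at Atf3, Fos and Fosl2, and 0 below. Over all peaks these shares were 10.9% and 5.02%. The Atf3 site (chr1:191193679-191194079), 10350 bp from the gene, had 163.8 and 189.6 in bulk, 39.3 and 49.0 in effector and 17.3 and 28.2 in central libraries. A distal Fos site had 146.6 and 208.0 in bulk, against 34.2 to 81.6 in the subset libraries. Both bulk libraries were above all subset libraries at each of these sites. Of 34 peaks near immediate-early and activation genes, 12 (35.3%) were above both, with Myc, Nr4a2, Nr4a3, Nfkb1, Dusp4, Dusp5, Tnfaip3 and Cd69 among their genes, and 1, also near Cd69, was below. Median log2 differences against the mean of subsets were 0.96 for the first and 0.73 for the second list, beside -0.03 for all peaks. These list medians kept their sign under each other scaling tried, at 0.73 to 0.97 and 0.47 to 0.73. The activation count above both was 5 of 34 with loess, beside 8 of 49 for effector Treg genes. It was 6 with quantile normalisation and 6 per total reads, beside 7 of 38 with either for the interleukin-2 list. The rank of the activation list thus depended on the scaling.

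Some Treg identity genes had sites above both subsets. The strongest peak at Foxp3 itself (chrX:7583928-7584328) had 141.6 and 143.7 in bulk, 48.2 and 88.2 in effector and 63.9 and 80.1 in central libraries. Bulk was above both by a smaller log2 difference of 0.99 (adjusted p = 0.016), but against the mean of the subsets the call was lost under loess and quantile normalisation. Ikzf2, which encodes Helios, had 124.4 and 132.8 in bulk and 38.6 to 70.4 in the subset libraries. A peak 32530 bp from Lrrc32, the gene of the GARP surface protein that holds latent TGF-beta, had 34.4 and 63.5 against 13.3 to 18.7. Without bulk library 2 its call against the mean was lost (log2 difference 1.05 in place of 1.49). The strongest Ctla4 peak, 10070 bp from the gene, had 54.6 and 46.8 in bulk, 71.0 and 83.6 in effector and 62.6 and 66.0 in central libraries. All bulk values were below all subset values, but adjusted p was 0.41 for outside both. In all, 6 of 44 peaks of the Treg core list (13.6%, at Foxp3, Ikzf2, Il2ra and Lrrc32) were above and 0 below both subsets, near the 10.9% of all peaks above both. The list's median log2 difference was 0.19, and its sign turned to -0.05 when scaled by total reads and to -0.04 under loess.

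Effector Treg genes held 13 of 49 peaks (26.5%) above and 0 below both subsets, beside 10.9% and 5.02% of all peaks. Their median log2 difference against the mean was 0.87. The count above both depended on the scaling: it was 8 with loess, 8 with quantile normalisation and 6 per total reads, with 1 below in each. With loess 450 of all 6396 peaks were above and 282 below. Nfil3, a basic leucine zipper factor, had 131.4 and 119.5 in bulk, 35.5 and 47.3 in effector and 4.00 and 2.97 in central libraries, so bulk exceeded the subset in which the site was strong (adjusted p = 0.0017). A peak 13800 bp from Il10, the gene of a suppressive cytokine, had 93.0 and 57.6 in bulk, 25.3 and 38.1 in effector and 2.66 and 3.71 in central libraries. Tigit, an inhibitory receptor, had the highest values of the group, with 414.6 and 389.3 in bulk, 209.1 and 249.7 in effector and 59.9 and 77.1 in central libraries. Rora, an orphan nuclear receptor of tissue Treg cells, had 5 of 8 peaks above both subsets. Not all sites lay above both. Other Icos peaks did, but the strongest had 52.6 and 31.7 in bulk, 81.1 and 81.9 in effector and 73.25 and 55.6 in central libraries. It was lower against the mean (limma adjusted p = 0.0086), a call that rested on bulk library 2, and was not called outside both. The strongest Maf peak, 19890 bp from the gene, lay between the subsets, with 28.3 and 37.6 in bulk, 49.4 and 50.8 in effector and 2.66 and 2.22 in central libraries. So did the strongest peak of Nrp1, a receptor of the Treg core list linked to thymic Treg cells. This peak, 44250 bp from the gene, had 103.1 and 133.7, 159.7 and 175.9, and 22.6 and 18.5.

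Naive and central T cell genes also had higher sites, with 22 of 96 peaks (22.9%) above and 1 (1.04%) below both. Over all peaks these shares were 10.9% and 5.02%. The list's median log2 difference was 0.81. Its peaks were stronger than most, with a median value of 42.81 beside 30.55 over all peaks. With loess 10 of the 96 were above and 2 below both, beside 450 and 282 of all 6396 peaks. With quantile normalisation 11 were above, and per total reads 13, so the count depended on the scaling. The median stayed positive, at 0.49 with loess. Bach2, a repressor that keeps T cells undifferentiated, had 6 of 9 peaks above both subsets, led in level by a site with 199.2 and 259.8 in bulk, 72.2 and 97.5 in effector and 55.9 and 69.0 in central libraries. Foxp1, a forkhead factor of quiescent T cells, had 6 of 21, among them a peak (chr6:99050482-99050882) with 278.1 and 288.2 in bulk, 95.03 and 144.8 in effector and 22.6 and 44.5 in central libraries. Tcf7, the gene of TCF-1, had 132.5 and 164.6 in bulk against 61.1 to 64.5 in all 4 subset libraries, so the subsets were level and bulk stood above (adjusted p = 0.0012). The strongest sites of Satb1, Tgfbr2 and Lef1 were not called outside both. The strongest Satb1 peak, 70640 bp from the gene, had 143.6 and 136.2 in bulk, 15.2 and 12.7 in effector and 90.6 and 120.8 in central libraries (adjusted p for outside both = 0.33). The strongest Ccr7 peak, 13070 bp from the gene, had 58.7 and 91.9, 49.4 and 53.1, and 79.9 and 85.3.

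Some genes collected several higher sites. Acoxl had 6 of 8 peaks above both subsets, Ets2 5 of 6, Jak2 5 of 11, Rap1b 4 of 5, Rras2 4 of 5 and Snx9 4 of 4. Over all peaks the share above both was 10.9%. Jak2 is a cytokine receptor kinase, Ets2 an ETS family factor, and Rap1b and Rras2 are small GTPases. The long noncoding RNA Morrbid, which controls expression of the pro-apoptotic gene Bcl2l11, overlapped a run of 8 peaks (chr2:128368544-128396419), 5 of them above both. The bulk libraries had 30.9 to 137.8 at these 5 sites, and the subset libraries 1.33 to 57.7. Of 66 peaks near Foxp3 partner genes, 11 were above both (16.7%, at Bcl11b, Foxo1, Ikzf3, Runx1, Satb1, Stat5b and Tcf7) and 3 below (4.55%, at Ets1, Ikzf1 and Runx1), beside 10.9% and 5.02% of all peaks. Runx1 was thus among the 24 genes with sites in both directions. With loess 4 of the 66 partner peaks were above and 1 below both.

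Other lists had few or no peaks outside both, beside 10.9% above and 5.02% below over all peaks. Of 31 peaks near chromatin regulator genes, 1 (3.23%), 46310 bp from Ep300, was above both and 0 below, with a median log2 difference of -0.20. These are weaker peaks, with a median value of 24.04 beside 30.55 over all peaks. In the decile with mean values from 22.8 to 26.63, 3.75% of peaks were above both, so the share of this list was near that of peaks of like strength. Of 23 peaks near T helper lineage genes, 2 were above both (8.70%), each in Stat4, which is near the share of all peaks. B cell and myeloid genes had 0 peaks in the Foxp3 table, and the CD8 and natural killer list had 2 peaks of 1 gene, Klrb1c, neither outside both. Of 11 peaks of the conventional CD4 T cell list 1 (9.09%), in Tcf7, was above, also near the 10.9% of all peaks. None of the 3 housekeeping peaks was called in the mean contrast, where Eef1a1 had 44.5 and 59.3 in bulk against 39.3 to 48.2. The 3 housekeeping and 2 Klrb1c peaks are too few to read a share from.

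Lower sites of bulk Treg cells were led in level by Aim2, a cytosolic DNA sensor. The peak (chr1:173398617-173399017) had 62.7 and 73.5 normalised reads in bulk, 247.1 and 365.7 in effector and 310.3 and 282.5 in central libraries, and 65.0 and 86.2 in the Batf knockout. Bulk and subset libraries were far apart, by a log2 difference of at least 2.11 from either subset (adjusted p = 8.3e-06). A peak 11290 bp from the histone variant gene H2az1 had 6.07 and 1.67 in bulk, 52.0 and 56.5 in effector and 82.6 and 57.8 in central libraries (adjusted p = 2.8e-05). The bulk values there come from few reads, since 3 reads of a bulk library amount to 3.03 and 2.51 normalised reads. Other named lower peaks lay in Snx29, Bbx, Rftn1, Ubap2l, St6galnac5 and Galnt7. The 10 higher and 9 lower peaks selected by size and shown by library kept their direction and their call against the mean of the subsets under each alternative in which they were tested. They were picked from these data as the largest calls, with bulk values part of the mean they had to reach. Their keeping of the call was thus close to fixed in advance. Over all calls outside both, loess kept 370 of 698 higher and 144 of 321 lower.

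Some genes had several lower sites, and those given next were chosen after their values were seen. Dock10, a guanine nucleotide exchange factor, had 8 of 31 peaks below both subsets, and Dock8, needed for lymphocyte migration, 4 of 20. Atm, the DNA damage kinase, had 4 of 15, Mbnl1, a splicing factor, 4 of 10, and Nipbl, the cohesin loader, 3 of 11. Over all peaks the share below both was 5.02%. A run of 6 called Dock10 peaks had 9.19 to 23.4 in the bulk libraries and 19.6 to 56.3 in the subset libraries, with no BATF or IRF4 peak on any of them. In gene bodies lay 75.1% of lower, 59.0% of higher and 71.0% of all peaks, and 3.53%, 7.94% and 7.61% overlapped a promoter window. Promoter windows of chromosome 18 were not analysed here.

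Chromosome X held lower sites in some known loci of X inactivation. Of its 159 peaks, 23 (14.5%) were below both subsets, beside 5.02% of all peaks, and 12 (7.55%) above. The median log2 difference was -0.45 on this chromosome, beside -0.02 on all autosomes, -0.35 on chromosome 14 and -0.33 on chromosome 3. Of the 159 peaks, 99 had a mean below the table median. Over the whole table the weakest decile had a median of -0.85. Firre, a noncoding RNA gene that acts in the folding of the inactive X, held 8 peaks (chrX:50565041-50623584), of which 7 were below both subsets. At these 7 the bulk libraries had 0 to 4.18 normalised reads, effector libraries 19.0 to 38.0 and central libraries 7.41 to 23.97. The noncoding gene 4933407K13Rik, at the Dxz4 repeat where the inactive X folds, had 5 of 5 peaks below both (chrX:75733584-75759402), with 0 to 1.01 in bulk and 4.45 to 34.2 in the subset libraries. The nearest protein-coding gene to these 5 is Pls3.

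Xist, the RNA that coats the inactive X, overlaps its antisense gene Tsix. The peak there (chrX:103481602-103482002) had 1.01 and 2.51 in bulk, 52.0 and 42.1 in effector and 33.3 and 26.7 in central libraries (adjusted p = 3.3e-04). The Batf knockout libraries had 1.02 and 0. Kdm6a, a histone H3 lysine 27 demethylase gene that like Kdm5c escapes X inactivation, had 22.3 and 31.7 in bulk, 59.6 and 51.3 in effector and 69.3 and 45.2 in central libraries (adjusted p = 0.020). At every one of these loci both bulk libraries were below all 4 subset libraries, and the Batf knockout libraries were near the bulk ones. Since the labels give no sex, whether the groups differ in it was not tested. With loess 1 Firre and 0 4933407K13Rik peaks were called, and with quantile normalisation 7 and 3, while the Xist and Kdm5c promoter peaks were called with both. Without central library 1 the counts were 1 and 0, and without bulk library 1 they were 2 and 2. On autosomes alone 686 peaks were above and 298 below both subsets.

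**Figure D4:**
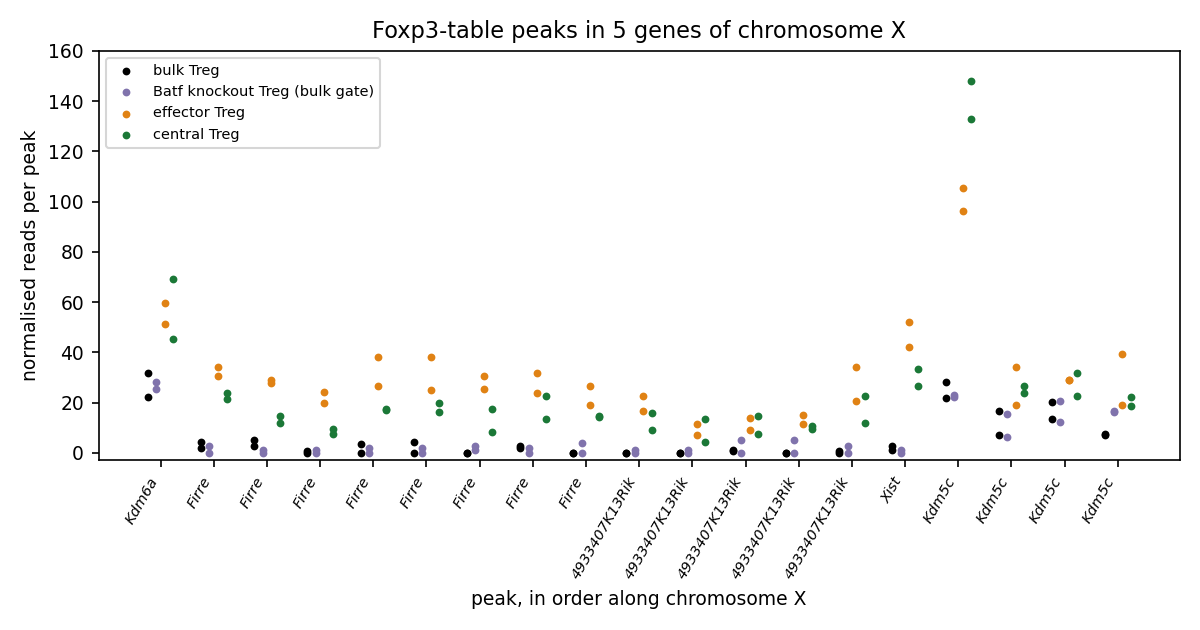
Normalised reads per peak in each of 8 libraries at all Foxp3-table peaks that overlap Kdm6a, Firre, 4933407K13Rik, Xist or Kdm5c, in order along chromosome X. Bulk and Batf knockout points lie near 0 at Firre, 4933407K13Rik and Xist, where effector and central libraries reach 52.0, and at the first Kdm5c peak, its promoter, bulk has 28.3 and 21.7 against 96.3 to 147.8.

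BATF and IRF4 binding, measured in other libraries of bulk-gated Treg cells and of conventional CD4 T cells (Tconv, CD4+hCD2-), is given here as a description of the higher and lower sites, with no test of the shares. A BATF peak overlapped 530 of the 698 higher sites (75.9%), 57 of the 321 lower sites (17.8%) and 48.2% of all Foxp3 peaks. An IRF4 peak overlapped 66.6%, 12.5% and 39.7%, and neither factor 16.9%, 77.9% and 45.6%. The share on a BATF peak was 5.31% in the weakest and 87.3% in the strongest decile of Foxp3 peaks, and 583 of the 698 higher sites were at or above the table median. The mean behind these deciles and this median includes the bulk values, which raises it at higher sites. Among peaks at or above that median BATF peaks lay on 81.3% of higher, 42.2% of lower and 73.3% of all peaks. With loess the BATF share was 67.1% at higher and 49.7% at lower sites, so that lower sites were then close to all peaks. With quantile normalisation the shares were 70.1% and 36.2%.

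At overlapped peaks BATF was also compared between Treg and Tconv cells with limma. Of the 530 BATF peaks on higher sites, 312 (58.9%) were higher in Treg than in Tconv cells and 4 lower, where 31.4% and 4.97% of all BATF peaks on a Foxp3 peak were so called. The median log2 difference of Treg minus Tconv was 0.94 at higher sites, -0.10 at lower sites and 0.24 over all. For IRF4, 35.5% of the peaks on higher sites were higher in Treg cells, beside 21.8% of all, with a median of 0.57 beside 0.10. Of the 40 IRF4 peaks on lower sites, Treg cells were above Tconv cells at 0 and below at 9, beside 8.58% below over all, and the median was -0.55. The Nfil3 and Foxp1 sites named above had BATF log2 differences of 5.08 and 3.32, whereas the BATF peak on the Kdm5c promoter had 0.08.

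**Figure D5:**
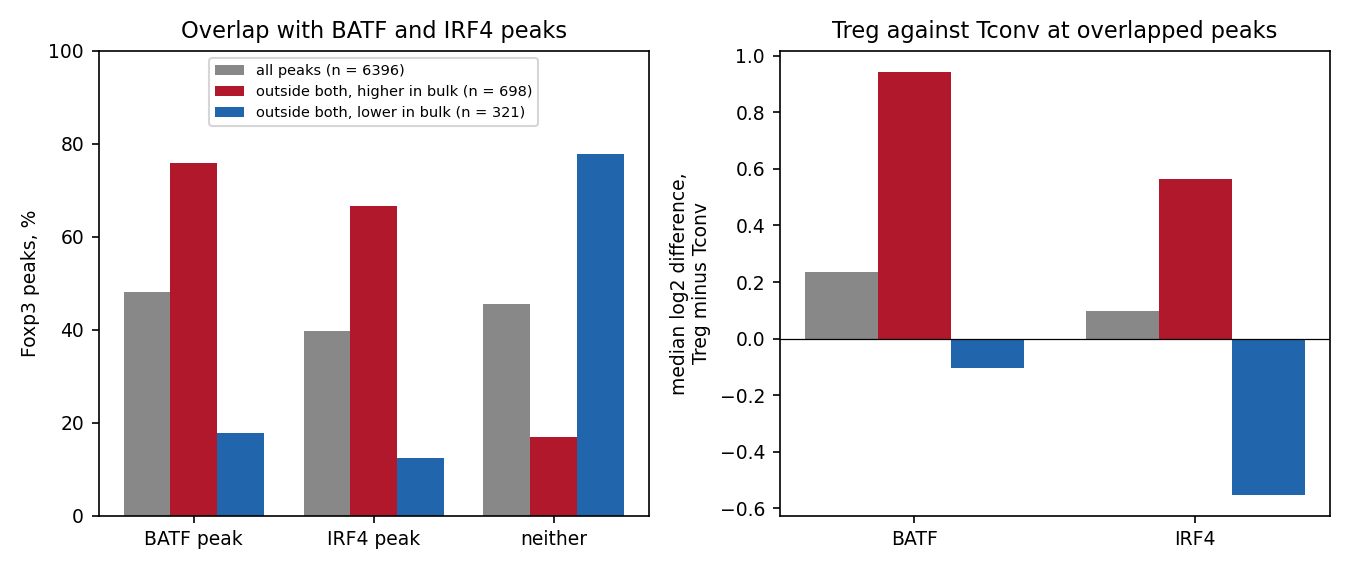
Left, percent of Foxp3 peaks that overlap a BATF peak, an IRF4 peak or neither, for all 6396 peaks, the 698 above and the 321 below both subsets. Right, median log2 difference of Treg minus Tconv cells in BATF and IRF4 at the overlapped peaks: 0.94 and 0.57 at higher sites, and -0.10 and -0.55 at lower sites.

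Where the subsets themselves differ, the position of bulk Treg cells can be given on a scale set by their difference. Effector and central cells differed at 1646 peaks, 958 higher in effector (15%) and 688 higher in central cells (10.8%). On a linear scale with central cells at 0 and effector cells at 1, bulk cells had a median position of 0.72 and lay between the subset means at 825 of these peaks (50.1%). At peaks higher in effector cells the median was 0.94, and 458 peaks were beyond the effector mean. At peaks higher in central cells it was 0.47, and 212 were beyond the central mean. Batf knockout cells had a median position of 0.31. The peaks were chosen by the same difference that sets the scale, and many bulk values lay outside it. The median position is thus no estimate of the share of either subset in the bulk cells. No call between the subsets was made at 551 of the 698 higher (78.9%) and 311 of the 321 lower sites (96.9%), beside 74.3% of all peaks, so the higher sites were near the background in this.

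Batf knockout Treg cells, sorted through the bulk gate, were compared with the same 4 subset libraries, so both sets of values share their controls. They lay above both subsets at 708 peaks (11.1%) and below at 271 (4.24%). At the 698 sites where wild-type bulk was above both, the knockout median was 74.3 beside 76.6 in wild-type bulk, and at the 321 lower sites it was 17.4 beside 10.6. These sites were chosen on the wild-type bulk values, which by itself places those values further from the subsets. Bulk and knockout were called different at 27 of the 698 and 13 of the 321. At Fasl the knockout libraries had 103.7 and 137.7, and at the Stat5b site 129.1 and 95.2, both above all subset libraries. At Nfil3 they had 51.8 and 29.6 and were below wild-type bulk in the test between both groups (limma adjusted p = 0.0029). Wild-type bulk differed from the knockout at 285 peaks of the table, 250 higher (3.91%) and 35 lower (0.547%).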

How the data were processed

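Chromatin immunoprecipitation of Foxp3 was analysed in 8 libraries, 2 per group. The authors deposited 1 table per factor of normalised reads per peak, in a unit of signal, with most peaks spanning 400 bp. Build mm10 and the tools DiffBind 3.12.0, edgeR 3.38.4, MACS2 2.2.7.1 and Bowtie2 2.4.1 are named in the submitters' processing notes, and their roles are not given in the sources used here. Within 0.01, all values of a library came out as whole reads times 1 factor, and deposited factors were close to edgeR's TMM factors, so a change common to most peaks is scaled away. Whether coordinates count from 0 or 1 is not settled.

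Log2(value + 1) was fitted with limma 3.58.1 in R 4.3.3, 4 group means and a trend of the spread, two-sided, with Benjamini-Hochberg adjustment over all 6396 peaks and a threshold of 0.05. Named peaks were first the 10 higher and 10 lower outside both subsets with the largest smaller difference, 1 per gene. They had to have a mean at or above the table median and both bulk values outside the range of the 4 subset values. That bulk and subset libraries do not overlap at these peaks was thus fixed by the choice. The strongest peak of 27 Treg genes was added. So were, from each of 15 gene lists, up to 2 peaks of different genes with the lowest p against the mean. Other sites named, such as those of chromosome X, Acoxl and Dock10, were chosen after their values were seen. Members and lists were chosen with earlier results of these data known. The Treg against Tconv fits of BATF and IRF4 were added later. In simulated data, 4-fold changes of bulk outside both were recovered for 99% of raised and 86% of lowered peaks, and 2-fold changes for 7% and 4%. There only 200 peaks were changed in bulk, the other groups shared 1 mean per peak, and no trend with strength was put in. The real data differ in each of these, so the rates need not hold for them. Alternatives covered scaling, pseudocount, filters, left-out libraries, and edgeR 4.0.16 and DESeq2 1.42.0 on recovered reads. Inputs and the second BATF table were not used, and some items are not reported here.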

Additional observations from a re-analysis of the deposited data

Results flagged for a closer look

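At 4 of the 63 named Foxp3 peaks wild-type bulk and Batf knockout Treg cells differed, by limma's test of bulk minus knockout with adjustment over all peaks. Over the whole table bulk was higher at 250 peaks (3.91%) and lower at 35 (0.547%). The share among the named peaks was thus near that of all peaks. The Nrp1 peak had 103.1 and 133.7 normalised reads in bulk and 6.10 and 9.01 in the knockout, a log2 difference of 3.81 (adjusted p = 3.6e-09). The Maf peak had 28.3 and 37.6 against 6.10 and 9.01, a log2 difference of 2.00 (adjusted p = 0.0059). The Nfil3 peak differed by 1.65 (adjusted p = 0.0029), with 131.4 and 119.5 against 51.8 and 29.6. The Bbx peak, lower than in both subsets in bulk, was lower in bulk than in the knockout too, by -1.13 (adjusted p = 0.037), with 18.2 and 10.0 against 33.5 and 28.3. In each pair both bulk libraries were on 1 side of both knockout libraries.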

How the results depend on the processing

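Of the named peaks called against the mean, the Ets1 peak changed direction, at -0.021 under loess in place of 0.55. Among named peaks not called, log2 differences crossed 0 over the alternatives at Ccr7 (-0.39 to 0.49), Eef1a1 (-0.14 to 0.46), Gata3 (-0.13 to 0.42) and Nt5e (-0.31 to 0.34). Peaks lower than the mean of subsets (1241) numbered 591 with DESeq2, 648 with a filter at the 25th percentile of the mean, 306 above the median and 1974 per total reads. Peaks outside both and higher (698) numbered 450 with loess, 456 per total reads and 418 with quantile normalisation. Peaks outside both and lower (321) numbered 566 without the knockout libraries, 113 with DESeq2, 187 with the filter, 106 above the median, 670 per total reads and 514 when each contrast had to pass by itself. Against effector cells the lower peaks (919) became 402, 484, 238 and 1566 with DESeq2, the filter, peaks above the median and total reads, and against central cells (1252) they became 646, 714, 352 and 1930. Filters test fewer peaks; the other causes were not tested. Leaving out 1 library gave 1164 to 1601 higher and 613 to 979 lower against the mean, 343 to 617 and 84 to 223 outside both, 752 to 1346 and 212 to 842 against effector, and 1254 to 1557 and 527 to 1103 against central cells. Loess, autosomes alone and peaks above the median were chosen after seeing the data.

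Replicate numbers did not pair the libraries: deviations correlated at 0.0087 between bulk and effector, -0.03 between bulk and central and 0.14 between effector and central. With the replicate number as a block 719 peaks were higher and 315 lower outside both, and 1715 and 1237 against the mean. Values near 3 reads, 1.73 to 4.00 normalised reads over the 8 libraries, limit the lower sites.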
